A study of Rattus norvegicus with 47 samples.

Results

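Cxcr4 encodes the chemokine receptor CXCR4, and it was followed here through whole blood of rats after exposure to a predator's scent. It is 1 gene of the 13337 whose symbols the array's annotation gives, and the probe with that symbol, 1 in all, was measured on every usable array. The gene was chosen by its measured difference between exposed and control males in these same data. For that reason the male differences from control, and the sex difference in the effect of exposure, are given as values with errors and without a test. The female differences from control form part of that sex difference, so their p-values are descriptive and lend no independent support.

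The series asked how exposure to predator scent, a model of traumatic stress, and the behaviour that followed it relate to gene expression in blood. All rats were adult Sprague Dawley animals with no genetic modification named in the labels, and 1 array was run per sample. The interval between exposure and blood sampling is not given in the sources used here. The 6 groups were males of extreme response (n = 8), males of minimal response (n = 8), control males (n = 8), females of extreme response (n = 8), females of minimal response (n = 8) and control females (n = 7, of which 6 gave a usable array). Extreme and minimal are the submitters' classes of behaviour among exposed rats, so they were not assigned at random.

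CXCR4 is a receptor coupled to inhibitory G proteins, and its main ligand is the chemokine CXCL12, which stromal cells of bone marrow and other tissues release. Receptor and ligand hold neutrophils and blood-forming cells in the marrow and guide lymphocytes between blood and tissue, and most leukocyte types carry the receptor. Stress hormones are known to shift leukocytes between blood and marrow, and glucocorticoids are reported to raise CXCR4 on T cells.

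The 250 bases before the annotated start of Cxcr4 are shown because the factors examined further on are described as acting at such upstream sequence. They come from RefSeq on the rat build GRCr8, at chr13:42634289-42634538, minus strand, written 5′ to 3′, and the capitals mark 3 kinds of motif. The first 2 runs of capitals are GC boxes, the longest run is the NRF1 palindrome joined to another GC box, and the last run holds the TATA box.
Cxcr4 upstream: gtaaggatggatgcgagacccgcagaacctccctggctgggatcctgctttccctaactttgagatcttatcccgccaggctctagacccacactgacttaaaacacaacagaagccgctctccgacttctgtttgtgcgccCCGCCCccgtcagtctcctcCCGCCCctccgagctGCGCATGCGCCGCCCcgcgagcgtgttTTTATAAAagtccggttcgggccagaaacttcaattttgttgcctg
The GC box GGGCGG, a site of SP1-type factors, was found 3 times, each time on the reverse strand, beginning at −108, −88 and −64 from the start. Of 27457 rat windows of this length, 32.1% hold it. The NRF1 palindrome, the first letters of the longest run of capitals and a site the factor NRF1 binds in human cells, occurs in 0.827% of the windows. Here its last base is shared with the GC box that follows it. TATAAA was found on both strands in overlapping positions, and 13.2% of windows hold it. The glucocorticoid receptor half-site AGAACA (17.2% of windows) and the hypoxia core ACGTG (16.9%) are not in these letters on either strand, while the other hypoxia core, GCGTG (26.9%), occurs 1 time. The window holds 18 CpG dinucleotides, against a median of 6 over all windows, and 57.6% G or C, against a median of 52%.

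Between 5921 and 8770 of 22523 probes were detected on the 46 usable arrays, and 9416 probes were tested. Values are background-corrected, quantile-normalized log2 intensities, and a difference of 1 is a doubling. The array of female control replicate 2 was left out of every female value except those given with all 47 arrays. Its highest intensity was 83.2, with 1115 probes detected. The Cxcr4 probe was detected on 46 of 46 usable arrays, as were the T cell gene Cd3e and the red cell gene Alas2. In 4 of the 6 control females, replicates 1, 3, 4 and 5, immediate early gene scores were 0.91 to 1.16 and platelet scores −3.08 to −1.36, against 0.01 to 0.03 and 0.18 to 0.52 in replicates 6 and 7. These arrays stand apart. Without them only replicates 6 and 7 remain as control females, which widens the errors. In that fit 1 probe was higher and 0 lower between exposed and control females, of 9416 tested. No call on a listed gene in that comparison thus holds without the 4 arrays. Scores here are mean log2 values of a gene list, each gene centred over the arrays. A list of 10 muscle genes, added to watch for tissue taken with the blood, scored 5.06 in male control replicate 2, the highest of all arrays.

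In males, Cxcr4 was higher in exposed rats. Its log2 level ran from 6.62 through a median of 8.09 to 9.60 in males of extreme response, from 8.00 through 9.05 to 9.94 in males of minimal response, and from 6.20 through 7.16 to 8.38 in control males. The ranges of the 3 groups overlap, with 1 rat of minimal response and 5 of extreme response inside the control range. Exposed males averaged 8.56 ± 0.86 (SD, n = 16) and control males 7.19 ± 0.74 (SD, n = 8), a log2 difference of 1.37 ± 0.27 (SE), or 2.58-fold. Of 16 exposed males, 15 lay above the control mean and 10 above the highest control. In blood as a whole, fewer cells of a type and less RNA per cell cannot be told apart, in this and all later comparisons.

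The minimal response group stood 1.76 ± 0.31 above the control males (3.39-fold), and all 8 of its rats lay above the control mean. The extreme response group stood 0.98 ± 0.31 above the same controls (1.97-fold), with 7 of 8 rats above their mean. Both differences share the 8 control rats. Over all probes, 11.2% passed at an adjusted p of 0.05 (limma, Benjamini-Hochberg) between exposed and control males and 14.8% between minimal response and control. Between extreme response and control 0 of 9416 passed (1437 at an unadjusted p under 0.05), and weighting arrays by their quality gave 83 higher and 66 lower.

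The control males were spread widely. Without any correction the probe's intensity ran from 162 through 353 to 909 in males of extreme response and from 251 through 550 to 966 in males of minimal response, against 102 through 230 to 487 in controls. Within the 8 control males, the level rose with the number of probes detected (r = 0.70) and with the array's brightness, its 95th percentile of intensity (r = 0.69), as a description of 8 arrays. Over the 46 arrays, with group means taken out, r was 0.12 (Spearman 0.16, permutation, adjusted p = 0.874 and 0.635) for probes detected and −0.03 (Spearman −0.01, adjusted p = 0.874 and 0.949) for brightness. These pooled values join groups of opposite sign. By group r ran from −0.806 in control females to 0.70 in control males for probes detected. For brightness it ran from −0.685 to 0.69 in the same groups, with −0.346 in males of extreme response. With brightness as a covariate, at a slope common to all groups, the male difference was 1.37 ± 0.27. That fit cannot take out a relation to brightness that differs between groups. Over all arrays left out 1 at a time the male difference lay between 1.23 and 1.54.

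In females the receptor was lower in exposed rats, short of the threshold. Its log2 level ran from 7.81 through a median of 8.80 to 9.26 in females of extreme response, from 8.18 through 8.51 to 8.91 in females of minimal response, and from 8.60 through 9.83 to 10.11 in the 6 usable control females. The exposed and control ranges overlap, but all 16 exposed females lay below the control mean and 8 below the lowest control. Exposed females averaged 8.63 ± 0.41 (SD, n = 16) and control females 9.54 ± 0.63 (SD, n = 6), and the log2 difference of −0.91 ± 0.29 had an adjusted p of 0.0512 (limma). In this comparison 6.36% of all probes passed. The female difference of Cxcr4 is part of the sex difference that the choice of the gene leaned on, so its p-value is a description.

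The 2 response groups differed from those controls by similar amounts. The difference was −0.83 ± 0.33 for extreme response (adjusted p = 0.14) and −0.99 ± 0.33 for minimal response (adjusted p = 0.0725), with 8 of 8 rats below the control mean each time. Without control replicates 1, 3, 4 and 5 these were −0.03 (adjusted p = 0.996) and −0.19 (adjusted p = 0.999). Both share the 6 control females, and the gene was chosen with these values known. The background here was 5.36% of probes called for extreme response and 5.19% for minimal response.

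The female difference rested on the 4 control arrays named above. Those 4 had log2 levels of 9.79 to 10.11, and replicates 6 and 7 had 8.88 and 8.60, within the range of exposed females. Without the 4 arrays the exposed females differed by −0.11 ± 0.45 (adjusted p = 0.994), and with cell marker scores as covariates by −0.32 ± 0.43 (adjusted p = 0.931). Fitting the females by themselves gave −0.92 ± 0.21 (adjusted p = 0.00739), and scaling arrays to their 75th percentile gave −0.49 ± 0.32 (adjusted p = 0.346). The rat numbers of the 3 female groups form separate runs in the labels, so the order of handling and the group cannot be told apart.

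The effect of exposure, exposed minus control, was 2.28 ± 0.40 larger in males than in females, a value the choice of the gene leaned on, and 1.48 ± 0.52 larger without the 4 control females. Between groups the mean log2 level was highest in control females and next in males of minimal response (8.95 ± 0.59), females of extreme response (8.71 ± 0.52), females of minimal response (8.55 ± 0.29), males of extreme response (8.16 ± 0.94) and control males (7.19 ± 0.74, SD, n = 8 each). Neighbouring means lay 0.59, 0.24, 0.15, 0.39 and 0.98 apart in this order, and at each step the ranges of the 2 groups overlap. The first 4 gaps are smaller than the SD of at least 1 of the groups, and the last one belongs to the comparison that chose the gene.

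**Figure D1:**
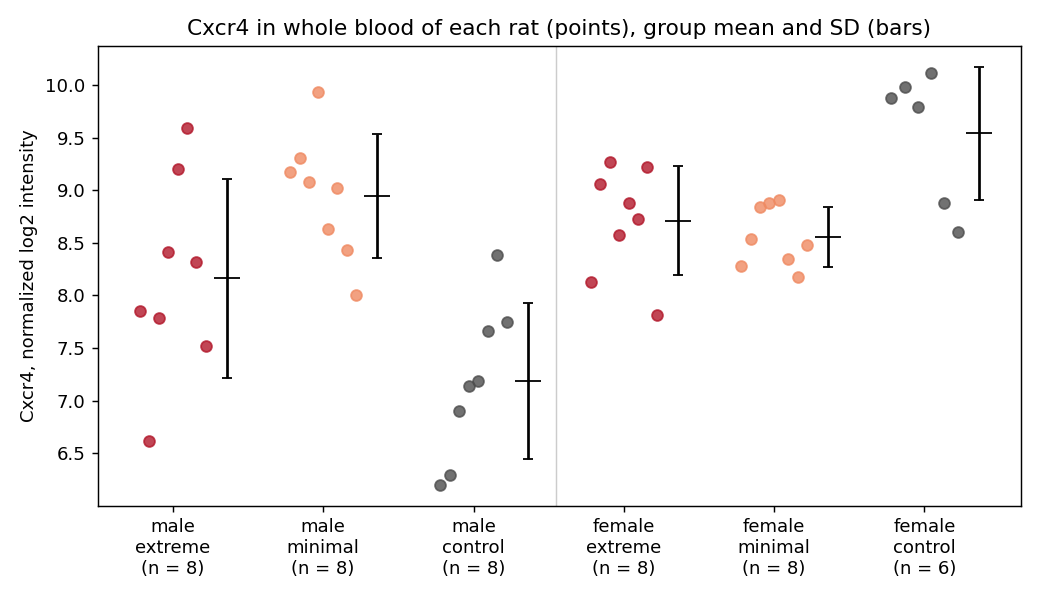
Normalized log2 intensity of the Cxcr4 probe in each rat (points, placed by replicate number within a group) with the group mean and SD (bars), for 24 males at the left and 22 females at the right. Control males reach from 6.20 to 8.38 and sit lowest, and 4 of the 6 control females lie above every exposed female.

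Behavioural class was compared within exposed rats, which leaves the controls out. In males, extreme response was lower than minimal response by value, at 8.16 ± 0.94 against 8.95 ± 0.59 (SD, n = 8 each). The difference of −0.79 ± 0.31 did not pass (unadjusted p = 0.0136, adjusted p = 0.246, limma), with 95% limits of −1.4 and −0.169, and 6 of 8 rats of extreme response lay below the other group's mean. In females the groups had 8.71 ± 0.52 and 8.55 ± 0.29, a difference of 0.15 ± 0.31 (adjusted p = 0.883) with limits of −0.461 and 0.771. Males minus females, this class difference was −0.94 ± 0.43 and did not pass (adjusted p = 0.573). Of all probes 0.138% passed between the classes in males and 0.34% in females.

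Markers of blood leukocytes were set beside the receptor to show how the cell mix moved. In males, 77 marker genes of 10 leukocyte classes were tested. Of them 3 were higher and 1 lower in exposed than in control rats (5.19% called, against 11.2% of all probes), and their differences ran from −0.76 to 0.79 with a median of 0.01. The 4 called genes, none of which passed with 75th percentile scaling, were Mmp8, a collagenase of neutrophil granules (0.79 ± 0.20, adjusted p = 0.0082), Cxcr2, a neutrophil chemokine receptor (0.59 ± 0.18), Cd8a, the co-receptor of cytotoxic T cells (0.39 ± 0.13), and Ncf1, a subunit of the neutrophil oxidase (−0.44 ± 0.13).

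By class, the median differences in males were 0.02 for 12 neutrophil genes, 0.18 for 9 immature granulocyte genes, 0.11 for 7 monocyte genes, −0.21 for 13 T cell genes, −0.05 for 10 B cell genes and 0.06 for 8 NK and cytotoxic cell genes. Apart from the 4 named genes none of these members passed. The remaining classes, of 2 to 8 tested genes each, had medians from −0.08 to 0.15, and 0 of their members passed (limma) or had an unadjusted p under 0.05. The median over all probes was −0.01, and the receptor's own difference was 1.37. With cell marker scores as covariates it was 1.47 ± 0.25. Of 8 platelet genes 0 passed (1 at an unadjusted p under 0.05). The band 3 gene Slc4a1 of red cells, 1 of 11 erythroid genes, was higher (0.75 ± 0.23, background 6.23%). Muscle genes moved too, with 3 of 6 lower (background 4.97%) and a median of −1.36. Without male control replicate 2 the Cxcr4 difference was 1.24 ± 0.27. In that fit 0 of 6 muscle genes and 0 of 13 T cell genes passed, so the call on Cd8a was lost.

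In females, 1 of the 77 leukocyte markers was higher and 4 were lower (6.49% called, against 6.36% of all probes), over a range of −0.94 to 1.35. The protease gene Ctsw of cytotoxic cells was higher (0.47 ± 0.14). Klrd1, a receptor chain of NK cells (−0.94 ± 0.17), Hdc, the histamine-forming enzyme of basophils and mast cells (−0.88 ± 0.26), Cd14, a monocyte receptor for endotoxin (−0.68 ± 0.21), and Mmp9, a neutrophil gelatinase (−0.50 ± 0.15), were lower. Platelet genes moved most, since 8 of 8 were higher (background 4.27%) with a median of 1.87. Muscle genes had 2 of 6 higher (background 4.27%) and a median of 1.39. With the 4 control arrays left out, 0 of 77 leukocyte markers passed (8 at an unadjusted p under 0.05, median −0.12), as did 0 of 8 platelet genes (median 0.09) and 0 of 6 muscle genes (median 1.38). What the cell mix and these arrays contribute to the female values of Cxcr4 was not tested beyond these fits.

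**Figure D2:**
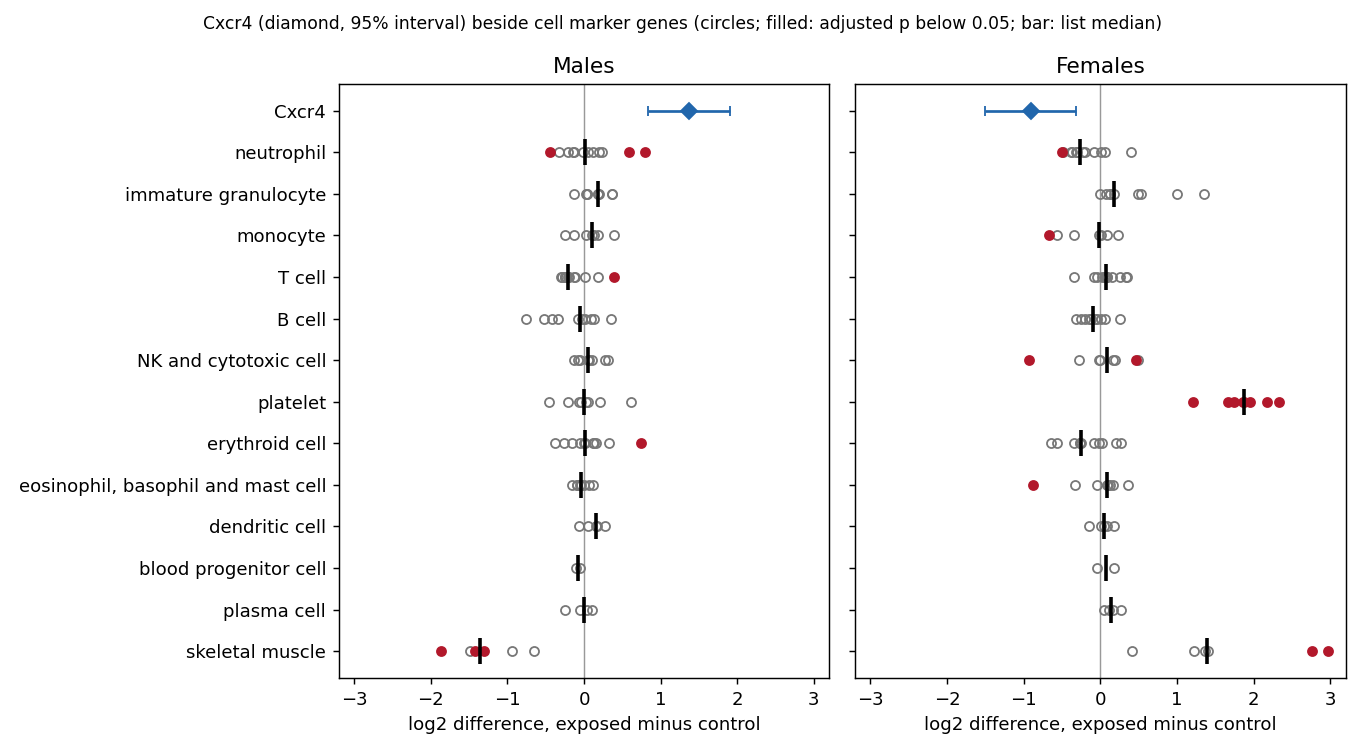
Log2 difference between exposed and control rats for Cxcr4 (diamond with its 95% interval) and for the tested genes of 13 cell marker lists (circles, filled where the adjusted p was below 0.05), with each list's median as a bar, males at the left and females at the right. In males the leukocyte markers run from −0.76 to 0.79 beside 1.37 for Cxcr4, which was chosen by this difference, and in females the platelet genes (median 1.87) move the other way from Cxcr4 (−0.91).

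The ligand and the signalling chain come next. Cxcl12 itself was detected on 7 arrays and differed by −0.12 ± 0.09 (adjusted p = 0.381) in males and 0.09 ± 0.09 (adjusted p = 0.646) in females. The scavenging receptor gene Ackr3, which also binds CXCL12, was detected on 0 arrays and was not tested. Of 31 tested genes of CXCL12 and CXCR4 signalling, 6 were higher (background 6.23%) and 2 lower (background 4.97%) in exposed males, with a median of −0.05. Gnai3, an inhibitory G protein alpha subunit through which the receptor signals, was higher by 0.98 ± 0.20 (adjusted p = 0.00159), and its relative Gnai2 differed by −0.05 ± 0.13 (adjusted p = 0.853). The beta subunit gene Gnb1 was higher by 0.29 ± 0.09.

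Regulators that shorten G protein signals were among the largest differences. Rgs18, found in platelets and blood-forming cells, was higher by 1.39 ± 0.29 and Rgs2 by 1.21 ± 0.21 (adjusted p = 0.00188 and 0.000588). The kinase gene Jak2 (0.40 ± 0.14) and the small GTPase gene Rac1 (0.32 ± 0.11) were also higher. Ptk2b, a focal adhesion kinase of leukocytes, and Rock2, a kinase of cell contraction, were lower (−0.45 ± 0.12 and −0.71 ± 0.18). In exposed females, Rgs18 (1.33 ± 0.32) and Rac1 (0.47 ± 0.12) were higher (background 4.27%), while Rgs2 (−1.03 ± 0.24) and the transcription factor gene Stat3 (−0.56 ± 0.16) were lower (background 2.09%). Without the 4 control arrays 0 of the 31 passed in females, and without male control replicate 2, 5 of the 31 passed in males. Males minus females, the effect of exposure on Rgs18 was 0.0615 with those 4 arrays and 1.13 ± 0.507 without them. With 75th percentile scaling 3 were higher and 1 lower in males, and 5 higher and 0 lower in females.

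The other receptors of leukocyte traffic were called about as often as probes in general (11.2%) in males. Of 18 tested chemokine and egress receptors, Cxcr2 was higher and Cxcr5, a receptor of B cell follicles, lower (−0.45 ± 0.13, adjusted p = 0.0163) in exposed males, and the median was −0.03. Without male control replicate 2, 1 of the 18 passed, and with 75th percentile scaling 0 did. In females 0 of 18 passed (limma, 3 at an unadjusted p under 0.05). Ccr7, which steers T cells and dendritic cells to lymph nodes, differed by 0.15 ± 0.14 in males and −0.15 ± 0.15 in females (adjusted p = 0.542 and 0.65). Among 13 adhesion molecules, the leukosialin gene Spn was higher in exposed males (0.41 ± 0.12, background 6.23%). The integrin gene Itgal (−0.59 ± 0.17), its ligand Icam2 (−0.47 ± 0.11) and Cd99 (−0.60 ± 0.17), which helps leukocytes cross vessel walls, were lower (background 4.97%). In females F11r (1.88 ± 0.30), Fermt3 (0.72 ± 0.16) and Itgb1 (0.64 ± 0.16), which platelets carry as well, were higher (background 4.27%). Spn was lower there (−0.51 ± 0.14, background 2.09%). Leaving out the 4 control arrays, 0 of 13 passed in females (1 at an unadjusted p under 0.05), and with 75th percentile scaling 0 of 13 passed in males.

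Of 9 tested factors reported to act on Cxcr4, 3 were higher (background 6.23%) and 1 lower (background 4.97%) in exposed males, with a median of 0.08. Ets1, a factor of lymphocytes, was higher by 0.98 ± 0.19 (adjusted p = 0.00159). Hif1a, the oxygen-regulated factor (0.47 ± 0.16), and Yy1 (0.43 ± 0.14) were higher, and Nrf1 was lower (−0.37 ± 0.13, adjusted p = 0.0499). In females Klf2, a factor of resting lymphocytes, was lower (−0.63 ± 0.17, background 2.09%) and the other 8 missed the threshold. Without male control replicate 2, 1 of these 9 passed in males, and the call on Ldha given next was lost. With 75th percentile scaling 1 of the 9 and 0 of 8 hypoxia-induced genes passed in males. Without the 4 control females 0 of the 9 passed in females, nor did any of those 8. Sp1 and Nr3c1, which encodes the glucocorticoid receptor, were detected on 2 arrays each and were not tested. Of 8 hypoxia-induced genes, the lactate dehydrogenase gene Ldha was higher in males (0.48 ± 0.15, background 6.23%) and the enolase gene Eno1 in females (0.61 ± 0.18, background 4.27%).

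Genes that glucocorticoids induce followed as the next list. Of 14 tested, 6 were higher (background 6.23%) and 0 lower (background 4.97%) in exposed males, with a median of 0.33. They were the phosphatase gene Dusp1 (1.18 ± 0.25), the RNA-destabilising factor gene Zfp36 (1.09 ± 0.23), the NF-kB inhibitor gene Nfkbia (0.91 ± 0.20), the factor gene Klf4 (0.77 ± 0.18), the annexin gene Anxa1 (0.66 ± 0.16) and Tsc22d3, the glucocorticoid-induced leucine zipper (0.46 ± 0.13). Dusp1, Zfp36, Nfkbia and Klf4 are known to respond to inflammatory and growth signals as well. With 75th percentile scaling 4 were higher and 0 lower. Fkbp5, a cochaperone of the receptor, differed by −0.28 ± 0.14 (adjusted p = 0.192) and the clock gene Per1 by 0.05 ± 0.16 (adjusted p = 0.892).

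In exposed females 6 of the 14 were lower (background 2.09%) and 0 higher (background 4.27%), with a median of −0.39. They were Dusp1 (−1.78 ± 0.28), the factor gene Cebpb (−1.56 ± 0.21), Zfp36 (−1.33 ± 0.25), Klf4 (−0.74 ± 0.19), Nfkbia (−0.73 ± 0.22) and Anxa1 (−0.70 ± 0.18). Without the 4 control arrays 0 of 14 passed and the median was 0.01, and with 75th percentile scaling 3 were lower and 1 higher. The effect of exposure differed between males and females in 7 of the 14, at a background of 11.4% of probes, and in 0 of the 14 without the 4 control arrays. Of 11 immediate early genes, 4 were lower in exposed females (background 2.09%), among them Fos (−2.59 ± 0.39). None of the 11 passed once the 4 control arrays were left out (1 at an unadjusted p under 0.05). In exposed males 0 passed (limma, 5 at an unadjusted p under 0.05). Between the behavioural classes in females Cxcr4 differed by 0.15, and 0.34% of all probes passed. There the glucocorticoid-induced genes Klf9 (1.24 ± 0.20), Pik3ip1 (0.73 ± 0.18) and Fkbp5 (0.65 ± 0.16) were higher at extreme than at minimal response. None of the 3 passed with 75th percentile scaling (adjusted p = 0.0968 to 0.336) or with all 47 arrays (0.211 to 0.812). The array added there is a control outside this contrast, and the values were then 1.23, 0.731 and 0.646. Without the 4 control arrays all 3 passed (limma, adjusted p = 0.00368 to 0.041). In males 0 of the 14 passed between the classes (5 at an unadjusted p under 0.05), with a median of −0.23.

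**Figure D3:**
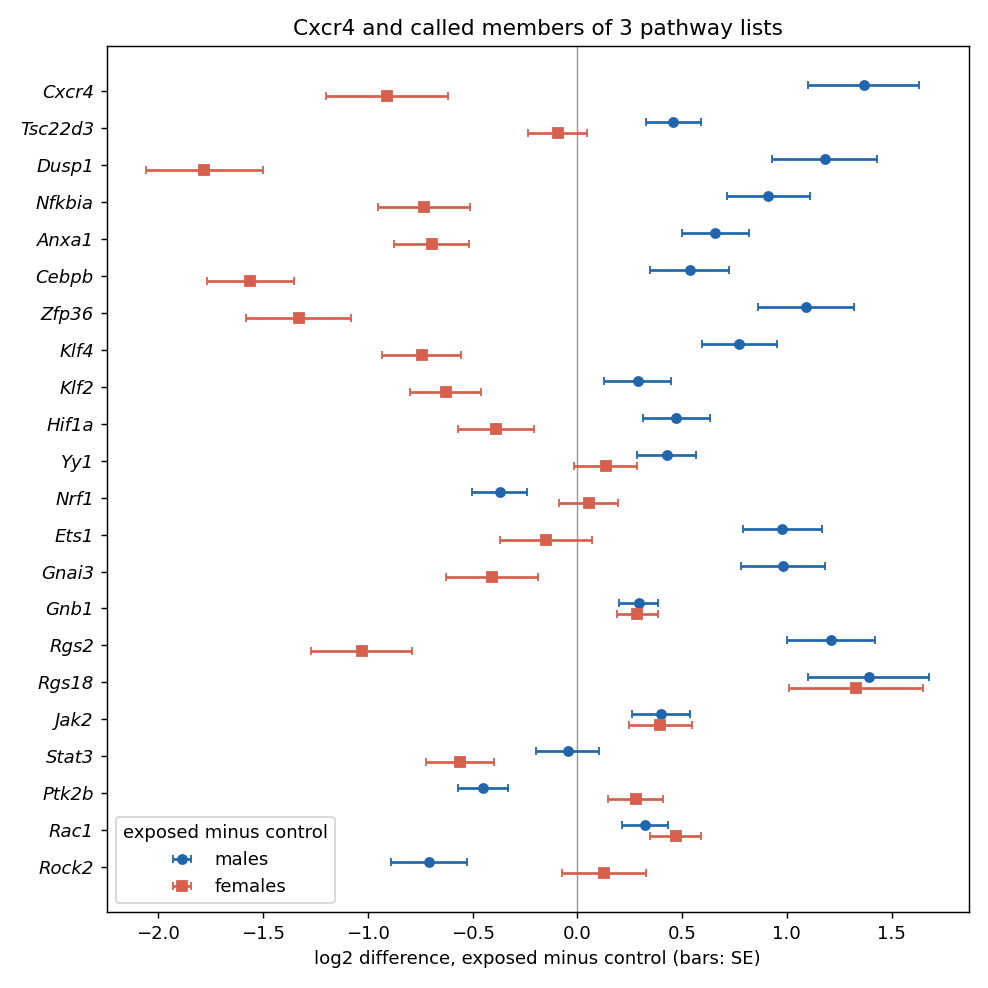
Log2 difference between exposed and control rats, with its SE, for Cxcr4 and for every member of the glucocorticoid-induced, transcription factor and CXCL12 and CXCR4 signalling lists that passed in either sex, in males (circles) and females (squares). Rgs18 lies above 1 in both sexes (1.39 and 1.33), whereas Dusp1, Zfp36, Nfkbia and Rgs2 lie above 0 in males and below 0 in females. The female values include control replicates 1, 3, 4 and 5, without which no gene of these lists passed in females. Males minus females, the values then went from 0.0615 to 1.13 for Rgs18 and from 2.24 to 1.21 for Rgs2. They went from 2.96 to 1.41 for Dusp1, from 2.42 to 0.933 for Zfp36 and from 1.64 to 1.19 for Nfkbia.

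Rats of the same group also differed in Cxcr4, with a pooled SD of 0.65, and this variation was set against the list scores with group means taken out. Of 12 cell marker lists, none correlated with the receptor after adjustment over the 12. The T cell score had r = 0.27 (Spearman 0.30, permutation within groups, adjusted p = 0.284 and 0.31) over 46 rats. Dendritic cell genes had r = 0.31 (Spearman 0.26, adjusted p = 0.28 and 0.31), platelet genes r = −0.32 (Spearman −0.27, adjusted p = 0.28 and 0.31) and neutrophil genes r = −0.23 (Spearman −0.18, adjusted p = 0.373 and 0.471). With the 2 most distant rats left out these were 0.26, 0.20, −0.26 and −0.08. With arrays scaled to their 75th percentile, r was 0.46 for the T cell score and 0.46 for the dendritic cell score (permutation, adjusted p = 0.0331 each), while Spearman's rho was 0.44 and 0.39 and did not pass (adjusted p = 0.0629 and 0.106). That scaling turned the sign for neutrophil genes (r = 0.19) and monocyte genes (r = 0.17, against −0.18), neither of which passed. Before that scaling, r in females of extreme response was 0.866 for T cell and 0.826 for dendritic cell genes. It was 0.753 for NK and cytotoxic cell and −0.865 for erythroid genes. In the other groups these ran from −0.0696 to 0.615, −0.246 to 0.487, −0.705 to 0.387 and −0.525 to 0.601. Without the 4 control females r was 0.386 for dendritic cell and −0.39 for erythroid genes (permutation, adjusted p = 0.103 each).

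The score of 14 glucocorticoid-induced genes rose and fell with Cxcr4 among rats of the same group. Over 46 rats r was 0.83 and Spearman's rho 0.80, each with a permutation p of 1e-05, the smallest that the permutations can give, and adjusted p = 7e-05 over 7 pathway lists, a family added after the data were seen. It was 0.81 without the 2 most distant rats. By group it was 0.96 in males of extreme response, 0.81 in males of minimal response, 0.93 in control males, 0.92 in females of extreme response, 0.14 in females of minimal response and 0.95 in control females. In control females the value follows the split between the 4 arrays and the other 2. With 75th percentile scaling the group values were 0.504, 0.878, 0.937, 0.846, 0.717 and 0.63 in the same order. Which groups had the higher and lower r thus depended on the scaling. Scores of the 9 transcription factors had r = 0.60 (Spearman 0.63, adjusted p = 7e-05 for each), and the other 5 lists had adjusted p-values of at least 0.437. With 75th percentile scaling all 7 lists passed by r, at 0.79 for the glucocorticoid-induced genes, 0.71 for the transcription factors and 0.24 to 0.41 for the rest. By Spearman's rho the adhesion, immediate early and hypoxia-induced lists did not pass there (permutation, adjusted p = 0.0709, 0.0818 and 0.0709). Without the 4 control females r was 0.81 for the glucocorticoid-induced genes and 0.57 for the transcription factors, and the signalling list passed by rho (0.40, adjusted p = 0.0434) but not by r (0.20, adjusted p = 0.475).

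**Figure D4:**
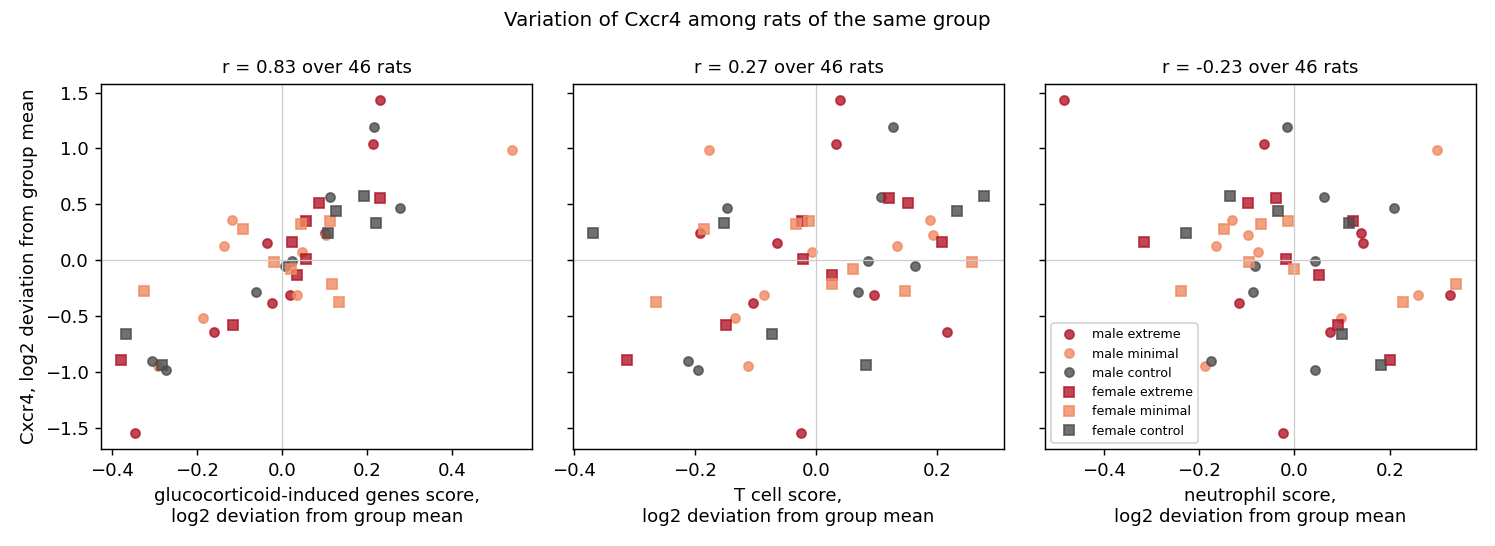
Deviation of Cxcr4 from its group mean (vertical, log2) against the deviation of 3 list scores from theirs (horizontal, log2) in 46 rats, circles for males and squares for females, coloured by response group. The glucocorticoid-induced score shows a narrow rising band (r = 0.83), and the T cell (r = 0.27) and neutrophil (r = −0.23) scores scatter.

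Single genes were ranked by the same within-group correlation over the 46 rats, as a description. Of 6672 other symbols, 50 had r above 0.7, and the median was −0.01. Nfkbia came first (r = 0.88), and its group means were also among the 5 nearest to those of Cxcr4. Its log2 level ran from 6.58 through 7.56 to 8.74 in males of extreme response, from 7.21 through 8.28 to 9.18 in males of minimal response and from 6.56 through 7.02 to 7.47 in control males. In females it ran from 7.47 through 7.91 to 8.36 at extreme response, from 7.37 through 7.91 to 8.34 at minimal response and from 8.05 through 8.73 to 9.06 in controls. The order of the groups was close to that of Cxcr4, with overlapping ranges. That follows from the place of Nfkbia among the 5 nearest in group means and is no separate result.

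Next came Txnip, an inhibitor of thioredoxin (r = 0.83), Tsc22d3 (0.82), Cytip, a lymphocyte protein that binds cytohesin (0.82), the growth-restraining gene Btg1 (0.79), Gnai3 (0.79), Inip (0.78) and Cd164, a sialomucin of blood-forming cells (0.78). The lowest values belonged to the nucleoside transporter gene Slc29a3 (r = −0.68), the importin gene Ipo13 (−0.65), the adducin gene Add3 (−0.64) and Hip1 (−0.61). By group means, Lypla1, Serp1, Nfkbia, Ptprc and Gnai3 lay closest, with root mean square distances of 0.19 to 0.24. Ptprc encodes CD45, which all leukocytes carry, and it differed by 0.97 ± 0.26 between exposed and control males. That value is a description without a test, since Ptprc was picked for group means close to those of Cxcr4. Its log2 level averaged 7.06 ± 0.95 in males of extreme response, 8.07 ± 0.41 in males of minimal response and 6.60 ± 0.47 in control males (SD, n = 8 each).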

How the data were processed

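Whole blood of each rat was lysed in RNA-fixing tubes, depleted of globin messenger RNA and hybridised to an Illumina rat bead array, per the labels' protocols. Per the file headers, the deposited values of each array are raw intensities of the probes, before normalization, with a p-value of detection beside each. A further table that the authors deposited, in log2 units, lies within 5e-09 of the quantile-normalized log2 of those intensities and was not used for results. The scanner software is not given in the sources used here. The labels give each sample a rat number, and samples were treated as separate rats. Among males, some numbers recur between the control group and each response group. Whether those samples came from the same rat is not settled by the labels. P-values take the spread between samples as that between rats, and the number of arrays limits their precision.

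Intensities were corrected with limma's normexp model (offset 16, controls inferred from detection p-values), quantile normalized over 46 arrays and put on the log2 scale. Probes with a detection p below 0.05 on at least 7 arrays were tested. Of 22523 probes, 13793 carried 1 symbol and 8730 none. A symbol's values are those of its brightest tested probe. A model of 6 group means was fitted with lmFit and eBayes (limma 3.58.1, R 4.3.3, 40 residual degrees of freedom), two-sided, with Benjamini-Hochberg adjustment over 9416 probes. All adjusted p-values of genes are limma's. Exposed is the average of the minimal and extreme group means, and the error of a difference is its SE. Within-group correlations used 1e+05 permutations of arrays within groups. The fit was tested on simulated data.

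Cxcr4 and the 20 gene lists were chosen with earlier results of these data known. Genes named are Cxcr4, the 8 with the highest and 4 with the lowest within-group r, the 5 nearest in group means, and in each list the called members and the 4 with the smallest p in either sex, of which some are left unprinted. Cxcl12, Ackr3, Gnai2, Sp1 and Nr3c1 fall outside that rule and were picked for their role after their values were seen. Alternatives were another background correction, offset, scaling or filter, all 47 arrays, each sex by itself, array weights, covariates, a replicate block and leaving out arrays. The counts without male control replicate 2, and the sex differences without 4 control females, were added after the data were seen.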

Additional observations from a re-analysis of the deposited data

Results flagged for a closer look

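Of 90 groups of scores and levels examined, 6 held an array far from the rest of its group, and chance alone flags about 1 group in 20. The skeletal muscle score was 5.06 in male control replicate 2, 1.24 in male extreme replicate 1 and −1.14 in female control replicate 4. The eosinophil, basophil and mast cell score was 0.818 in male control replicate 7, the NK and cytotoxic cell score −0.435 in female extreme replicate 8, and the glucocorticoid-induced score 0.71 in male minimal replicate 4. That last rat also had the highest Cxcr4 level of its group, 9.94, while no Cxcr4 level was itself that far from its group.

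Several genes set beside Cxcr4 had an effect of exposure that differed between the sexes in limma's interaction test, given as males minus females. Among glucocorticoid-induced genes it was 2.96 for Dusp1 (adjusted p = 1.87e-06), 2.42 for Zfp36, 2.09 for Cebpb, 1.64 for Nfkbia, 1.52 for Klf4, 1.35 for Anxa1 and −0.635 for Fkbp5 (adjusted p = 0.0348). In the signalling list it was 2.24 for Rgs2, 1.39 for Gnai3, −0.727 for Ptk2b and −0.834 for Rock2 (adjusted p = 0.0392). Without the 4 control females that stand apart, none of these 11 passed (adjusted p from 0.224 to 0.553). That fit keeps only replicates 6 and 7 as control females, so its errors are wider and a lost call need not mean a lost difference. Their values were then 1.41 for Dusp1, 0.933 for Zfp36, 1.28 for Cebpb, 1.19 for Nfkbia, 1.25 for Klf4, 1.13 for Anxa1, −0.594 for Fkbp5, 1.21 for Rgs2, 1.01 for Gnai3, −0.486 for Ptk2b and −0.674 for Rock2.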

How the results depend on the processing

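In males the Cxcr4 difference from control stayed positive in all 11 other settings, at 0.986 to 1.47 for exposed, 1.29 to 1.77 for minimal and 0.687 to 1.17 for extreme response, and with arrays left out 1 at a time at 1.23 to 1.54, 1.62 to 1.93 and 0.771 to 1.2. Extreme minus minimal response ran from −0.99 to −0.565 in males and from 0.0751 to 0.282 in females over omissions of 1 array, and passed in none. In females, exposed minus control passed without background correction (−0.781, adjusted p = 0.0277), with an offset of 50 (−0.855, 0.0415) and in females by themselves (−0.922, 0.00739), where minimal (−0.999, 0.0112) and extreme response (−0.846, 0.0369) passed too. Minimal response passed without background correction (−0.848, 0.0395). These female p-values are descriptive too, since the choice of the gene leaned on the sex difference they form part of. Omitting 1 array gave −1.1 to −0.794 for exposed, −1.17 to −0.871 for minimal and −1.02 to −0.703 for extreme response. Exposed females then passed in 7 of 22 omissions, of female control replicate 6 (−1.04) or 7 (−1.1), minimal replicate 4 (−0.932) or 5 (−0.934), or extreme replicate 2 (−0.934), 3 (−0.948) or 7 (−0.945), and minimal response in 2 of 14, of control replicate 6 (−1.12) or 7 (−1.17). With all 47 arrays the female difference was −0.179 (adjusted p = 0.813), where the median of all probes also shifted by 0.111. The cause of these changes was not tested.

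Calls between exposed and control males numbered 587 higher and 468 lower, against 115 and 52 with 75th percentile scaling and 71 and 48 with all 47 arrays. In females they were 402 and 197, against 514 and 48 with that scaling and 1 and 0 both without the 4 control arrays and with marker covariates. That scaling moved r with Cxcr4 to 0.462 for T cell and 0.459 for dendritic cell scores, which then passed, and for adhesion molecules to 0.325, opposite to −0.14. Neutrophil and monocyte scores changed sign too, without passing in either setting. As a replicate block, the replicate number gave 1.37 in males and −0.784 (adjusted p = 0.115) in females and changed no call on Cxcr4. Of 44 pairs with the same replicate number, 7 correlated above 0.1. The replicate number is a sample's order within its group, not the rat number of its label. Pairing of males that share a rat number was therefore not tested. Blood cell counts and corticosterone were not analysed here.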
